A study of Homo sapiens with 8 samples.

Results

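ABCA1, the membrane transporter that loads cholesterol and phospholipid onto apolipoprotein A-I, was described here together with both liver X receptors and their best known sterol targets, in RPE-1 cells given all-trans-retinal (atRAL), extracellular vesicles (EV) or both. The group holds 7 of the 46427 genes in the table, matched by symbol: ABCA1, ABCG1, MYLIP, LPCAT3, SREBF1, NR1H2 and NR1H3. The group was selected on ABCA1, whose counts with atRAL at 6 h were known when it was chosen, so its values are given as a description with no test. The other 6 are there for their role. They were nevertheless listed when results of all 8 libraries were known, so their tests are not independent evidence.

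Liver X receptors are nuclear receptors that bind oxidised cholesterol derivatives (oxysterols) and pair with a retinoid X receptor on DNA. NR1H2 encodes the beta form, found in most tissues, and NR1H3 the alpha form, best known from liver, fat, gut and macrophages. When cholesterol is plentiful they raise genes that export sterol (ABCA1, ABCG1), that degrade lipoprotein receptors (MYLIP, a ubiquitin ligase also called IDOL), that remodel phospholipids (LPCAT3) and that drive fatty acid synthesis (SREBF1). Retinal pigment epithelium takes up lipid-rich photoreceptor tips every day, and ABCA1 is among the transporters by which it passes lipid on.

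RPE-1 is a human pigment epithelial line immortalised with telomerase. Each of the 8 libraries is a different condition, with 2500000 cells treated: control, EV alone, atRAL alone, and atRAL with EV, each at 1 h and at 6 h. The atRAL dose was 25 µM and the EV dose 2000000000 particles per ml, and the series title ascribes the vesicles to mesenchymal stem cells of tonsil origin. No condition has a replicate, so each effect sets 2 libraries against 2. The p-values reflect nothing beyond the scatter among these 8 libraries, which may be technical. For effects at 1 time, that scatter also holds any real difference of the atRAL effect with and without EV. For effects taken across both times, it holds any real difference of the EV effect between times.

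Library totals ran from 45566237 to 71822269 counts, at which 3 counts correspond to 0.0418 to 0.0658 CPM (counts scaled to library size) by library total alone. The CPM levels of genes were further adjusted by the trimmed mean of M values (TMM). Of 11 pigment epithelium markers, 6 stayed under 1 CPM in all libraries. Among these, TYR and TTR had no count, RPE65 reached at most 0.122 CPM and RLBP1 at most 0.157 CPM. MITF stood at 28.4 to 43.9 CPM, OTX2 at 13.0 to 38.4 CPM and RDH5 at 11.6 to 15.6 CPM. They carried most of the summed level of all 11, which was 60.3 to 96.9 CPM. At 6 h, MITF, OTX2 and RDH5 were each lower in both atRAL libraries than in those without atRAL. BEST1 was higher there, at 4.33 CPM with atRAL and 1.89 CPM with both, against 0.672 to 0.964 CPM elsewhere. LRAT reached at most 1.41 CPM, with atRAL at 6 h. The 5 epithelial markers summed to 994 to 1280 CPM, carried by the keratins KRT8, KRT18 and KRT7, while EPCAM reached at most 0.0701 CPM and CDH1 at most 0.113 CPM. The 6 leukocyte or macrophage markers summed to 91.5 to 101 CPM. Of these, CD68 stood at 87.6 to 97.1 CPM and CSF1R at 3.70 to 5.41 CPM, while ITGAM had no count and PTPRC reached at most 0.177 CPM. The 6 mesenchymal markers summed to 1534 and 1543 CPM at 6 h without atRAL and to 1233 and 1265 CPM with it. NT5E carried most of that sum, at 633 to 1052 CPM over the 8 libraries. The part of these markers in the results was not tested. In bulk RNA, fewer cells of a type and less RNA per cell cannot be told apart.

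The sequence upstream of ABCA1 is shown because it holds a match to the direct repeat with 4 spacer bases (DR4) that liver X receptors bind. In the 250 bases before the RefSeq start (GRCh38.p14, chr9:104928156-104928405, minus strand), capitals mark a match to a relaxed form of it, in which the repeated unit NGGTNA occurs 2 times with 4 bases between.
ABCA1 upstream window: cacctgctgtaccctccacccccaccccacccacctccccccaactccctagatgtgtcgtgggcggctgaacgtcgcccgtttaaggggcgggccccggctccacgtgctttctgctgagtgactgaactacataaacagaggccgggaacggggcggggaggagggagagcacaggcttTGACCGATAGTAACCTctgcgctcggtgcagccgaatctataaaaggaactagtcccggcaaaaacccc
ABCA1 match on the other strand: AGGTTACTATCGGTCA
The match lies at -69 to -54 from the start. Both strands of 35116 RefSeq windows were searched, and 186 (0.53%) held the relaxed pattern, whose letters were chosen with this promoter in view. The strict form, with the unit AGGTCA 2 times and 4 bases between, was in 5 windows (0.0142%) and not in this one. The ABCA1 window also held the E-box CACGTG at -147 to -142, found in 6.34% of windows, and TATAAA at -31 to -26, found in 10.7%. TGANTCA, the AP-1 pattern, was in 6.57% of windows. The windows of MYLIP, LPCAT3, SREBF1, NR1H2 (1 each) and NR1H3 (4) held none of these patterns. A match is a description of letters, not of binding.

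A second set of sequences links SREBF1 to ABCA1. miR-33b lies inside SREBF1 and miR-33a inside SREBF2, and both microRNAs are known to repress ABCA1 in human cells. Their mature sequences (RefSeq, GRCh38.p14) share a seed, bases 2 to 8, shown in capitals, and the last line is a stretch of the ABCA1 3′ UTR (transcript ABCA1-202, GENCODE 29) with the complementary CAATGCA in capitals.
hsa-miR-33b-5p: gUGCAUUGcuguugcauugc
hsa-miR-33a-5p: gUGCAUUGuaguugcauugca
ABCA1 first 3 seed matches: tactattCAATGCAATGCAattCAATGCAa
That UTR of 3316 bases held 4 matches, starting at bases 138, 143, 153 and 1478. Mature microRNAs are not measured by these gene counts.

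ABCA1 (chromosome 9, 104781006 to 104928155) was steady at 1 h and high only in the atRAL libraries at 6 h. At 1 h its level was 67.7 CPM in the control, 61.2 with EV, 64.6 with atRAL and 64.6 with both. At 6 h it was 42.8 CPM in the control, 53.5 with EV, 375 with atRAL and 176 with both. Both 6 h atRAL libraries lay above the other 6, and the library with atRAL alone was the highest of the 8. The fitted log2 change with atRAL was 0.01 ± 0.41 (SE) at 1 h and 2.43 ± 0.44 at 6 h, a 5.37-fold difference over 2 libraries on each side. Leaving out the control or the atRAL library at 6 h brought the latter to 1.72, and leaving out either EV library at 6 h brought it to 3.13. For every gene, a 6 h effect without a 6 h library sets 1 library against 1. Without a 1 h library, mainly the error estimate of a 6 h effect changes. AL359182.1 overlaps ABCA1 by 685 bases on the opposite strand.

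**Figure D1:**
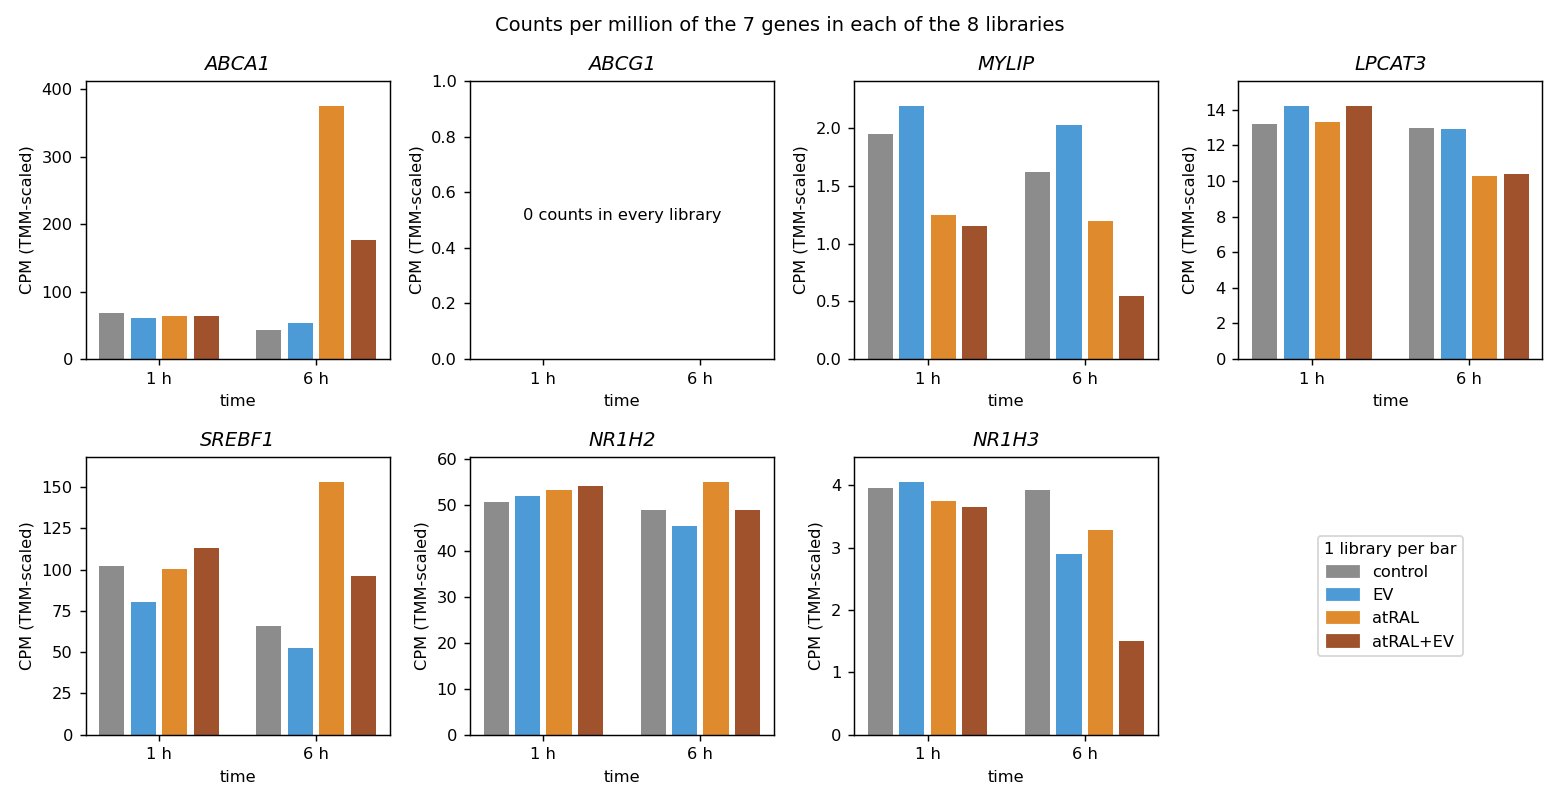
CPM (TMM-scaled, linear axes from 0) of the 7 genes, 1 bar per library and so without error bars, at 1 h and 6 h. ABCA1 reaches 375 CPM with atRAL and 176 CPM with atRAL and EV at 6 h, against 42.8 to 67.7 CPM elsewhere, and ABCG1 has no count.

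At 6 h the ABCA1 level differed with EV in opposite directions with and without atRAL. With atRAL, the EV library had 0.47 times the level of the library without EV (95% exact counting interval 0.46 to 0.48). Without atRAL the ratio was 1.25 (1.19 to 1.31). Read the other way, atRAL over no atRAL was 8.76 (8.44 to 9.10) without EV and 3.29 (3.17 to 3.42) with it. These intervals cover counting error only, and a difference between single libraries at 6 h has no replicate. Across both times, the EV effect was -0.55 ± 0.29 with atRAL and 0.09 ± 0.29 without on the log2 scale, a difference of -0.64 ± 0.41. The share of genes called for that difference was 0%, with 1.14% at an unadjusted p under 0.05.

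ABCG1 (chromosome 21, 42199689 to 42297244), the transporter that passes cholesterol to mature high density lipoprotein, had 0 counts in all 8 libraries. That allows a level of up to 0.0418 CPM in the deepest library and 0.0658 CPM in the shallowest, by library total alone. It was therefore not tested, and 6 of the 7 genes passed the filter on low counts. MYLIP (chromosome 6, 16129086 to 16163887) was detected at low level, from 34 to 145 counts. Its level at 1 h was 1.95 CPM in the control, 2.19 with EV, 1.25 with atRAL and 1.15 with both. At 6 h it was 1.62, 2.03, 1.20 and 0.549 CPM in the same order. The 4 atRAL libraries lay below the 4 without atRAL.

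With atRAL at 6 h, MYLIP fell by 1.11 ± 0.34 on the log2 scale (edgeR quasi-likelihood test, adjusted p = 0.044). The call was lost without any single 1 h library, without the EV library or without the atRAL with EV library at 6 h, with adjusted p of 0.0019 to 0.33 over the 8 omissions. The log2 change was -1.88 without the control or the atRAL library at 6 h, and -0.44 without either EV library at 6 h. At 1 h its log2 change was -0.78 ± 0.33 (adjusted p = 1, unadjusted p = 0.049, edgeR). The 6 h and 1 h effects differed by -0.33 ± 0.48 (adjusted p = 0.7, edgeR).

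LPCAT3 (chromosome 12, 6976185 to 7018476), which puts polyunsaturated acyl chains into phospholipids, spanned the narrowest range of the detected targets. It stood at 13.2, 14.2, 13.3 and 14.2 CPM at 1 h (control, EV, atRAL, both) and at 13.0, 12.9, 10.3 and 10.4 CPM at 6 h. Both 6 h atRAL libraries were the lowest of the 8. It fell by 0.32 ± 0.10 on the log2 scale with atRAL at 6 h (adjusted p = 0.038, edgeR), a call lost on leaving out any of the 8 libraries (0.075 to 0.15). EMG1 and C1S overlap LPCAT3 on the opposite strand, and whether reads were counted by strand is not given, so antisense reads cannot be told apart.

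SREBF1 (chromosome 17, 17811334 to 17836986) encodes sterol regulatory element binding protein 1, the factor for fatty acid synthesis genes. Its level at 1 h was 102 CPM in the control, 80.6 with EV, 100.1 with atRAL and 113 with both. At 6 h it was 66.1, 52.3, 153 and 95.9 CPM in the same order. Both 6 h atRAL libraries lay above the 6 h libraries without atRAL, but the one with EV was within the range seen at 1 h. SREBF1 rose 2.06-fold with atRAL at 6 h, by 1.04 ± 0.14 on the log2 scale (adjusted p = 0.0027, edgeR). On leaving out each of the 8 libraries, its log2 change was 0.87 to 1.21, with 1 library against 1 where a 6 h library was omitted.

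At 1 h the SREBF1 change with atRAL was 0.23 ± 0.14 (adjusted p = 1, edgeR). The 6 h effect exceeded the 1 h effect by 0.81 ± 0.20 (adjusted p = 0.043, edgeR), a call lost in 6 of 8 omissions (0.022 to 0.2). Between 1 h and 6 h the SREBF1 change was -0.63 ± 0.19 without atRAL (adjusted p = 0.23, edgeR). With atRAL it was 0.19 ± 0.20 (adjusted p = 0.55, edgeR). The gene counts do not separate SREBF1 transcript forms, of which liver X receptors are known to drive mainly the 1c form, and RAI1 overlaps it by 1055 bases on the opposite strand.

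The receptors themselves differed in level. Per length, in deposited FPKM (fragments scaled to gene length and library size), NR1H2 was at 16.5 to 20.3 and NR1H3 at 0.727 to 2.02. NR1H2 (chromosome 19, 50376457 to 50383388) stayed between 45.4 and 55.0 CPM in all 8 libraries, and its change with atRAL at 6 h was 0.14 ± 0.07 (adjusted p = 0.19, edgeR). NAPSA and NAPSB overlap it on the opposite strand.

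NR1H3 (chromosome 11, 47248300 to 47269033) had 3.96, 4.05, 3.75 and 3.65 CPM at 1 h and 3.93, 2.90, 3.28 and 1.5 CPM at 6 h (control, EV, atRAL, both). The library with both agents at 6 h, with 93 counts, was the lowest. Its log2 change was -0.58 ± 0.20 with atRAL at 6 h (adjusted p = 0.065, edgeR) and -0.76 ± 0.20 with EV at 6 h (adjusted p = 0.1, unadjusted p = 0.0059, edgeR). ACP2 overlaps NR1H3 by 607 bases on the opposite strand.

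By FPKM the order of the 7 genes was not fixed across libraries. SREBF1 (9.82 to 31.4), NR1H2 (16.5 to 20.3) and ABCA1 (3.80 to 32.3) overlapped in range, as did ABCA1 and LPCAT3 (4.0 to 5.60). NR1H3 lay below all LPCAT3 values, and MYLIP (0.152 to 0.640) below all NR1H3 values. From the lowest to the highest library, CPM spanned 8.76-fold for ABCA1, 3.98-fold for MYLIP, 2.92-fold for SREBF1, 2.69-fold for NR1H3, 1.38-fold for LPCAT3 and 1.21-fold for NR1H2.

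Of the 6 genes other than ABCA1, 5 were tested, and with atRAL at 6 h SREBF1 rose and MYLIP and LPCAT3 fell. Beside these 3 calls, 30.2% of all 17044 genes tested were called, 15.9% higher and 14.2% lower. That balance turned with other scalings, from 2718 higher and 2422 lower to 2368 and 2913 with upper quartile and to 2461 and 2712 with library totals. With atRAL at 1 h, 0 of the 6 were called by edgeR, 1 had an unadjusted p under 0.05 (1.9% of all genes), and 0.00587% of all genes were called.

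**Figure D2:**
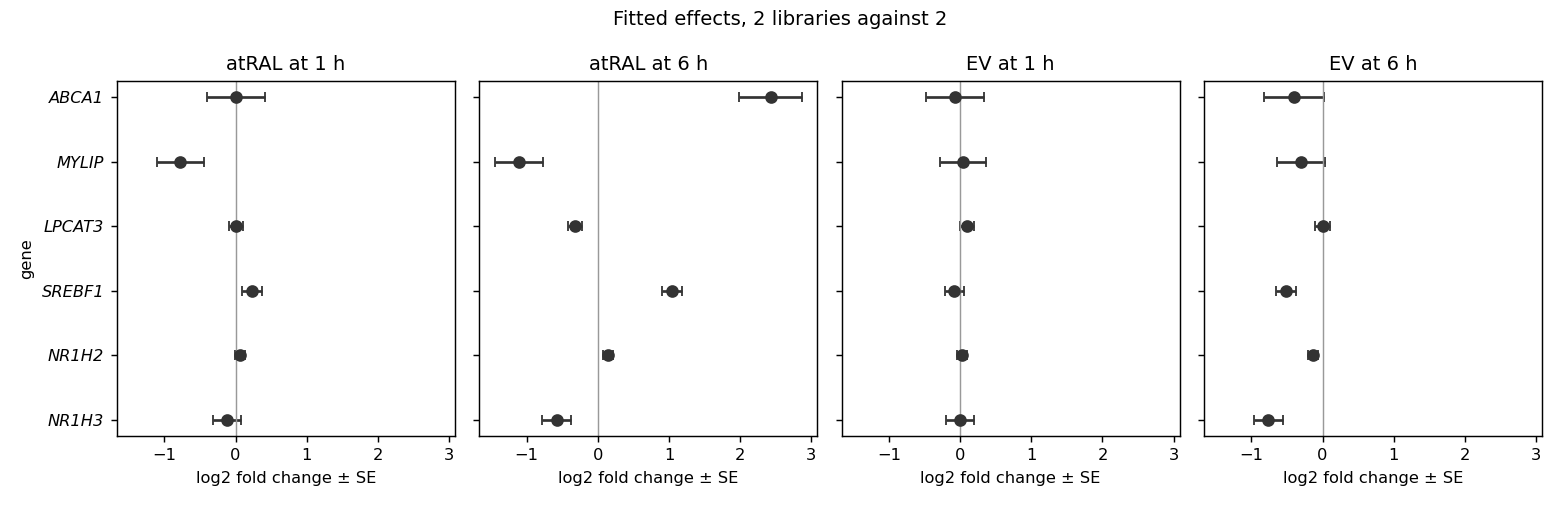
Log2 fold change (x axis) with its standard error (bars) for the 6 tested genes, for atRAL and EV at 1 h and 6 h, each 2 libraries against 2. The points for ABCA1 (2.43) and SREBF1 (1.04) lie to the right and MYLIP (-1.11) to the left with atRAL at 6 h, and all points lie near 0 with EV at 1 h.

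EV gave no call among the 6 genes other than ABCA1. At 1 h edgeR called 0, with 0 at an unadjusted p under 0.05 (4.52% of all genes), against 0.205% of all genes called. At 6 h it called 0, with NR1H3 and SREBF1 at an unadjusted p under 0.05 (18.6% of all genes), against 1.7% of all genes called. SREBF1 had a log2 change of -0.51 ± 0.14 (adjusted p = 0.12, edgeR), and ABCA1 one of -0.40 ± 0.42. DESeq2 called 1 of the 6 with EV at 6 h.

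The pairs of single libraries at 6 h show what these averages hold. With atRAL, EV over no EV was 0.63 (0.61 to 0.65) for SREBF1, 0.46 (0.35 to 0.59) for NR1H3 and 0.46 (0.30 to 0.70) for MYLIP. Without atRAL the ratios were 0.79 (0.76 to 0.83), 0.74 (0.61 to 0.88) and 1.26 (0.98 to 1.61). LPCAT3 had ratios of 1.02 (0.91 to 1.13) with atRAL and 0.99 (0.90 to 1.08) without, both intervals including 1. Over both times, the EV effect with atRAL was -0.57 ± 0.30 for NR1H3 and -0.60 ± 0.32 for MYLIP (adjusted p = 0.97 for each, edgeR), where 0% of all genes were called and 3.12% had an unadjusted p under 0.05.

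**Figure D3:**
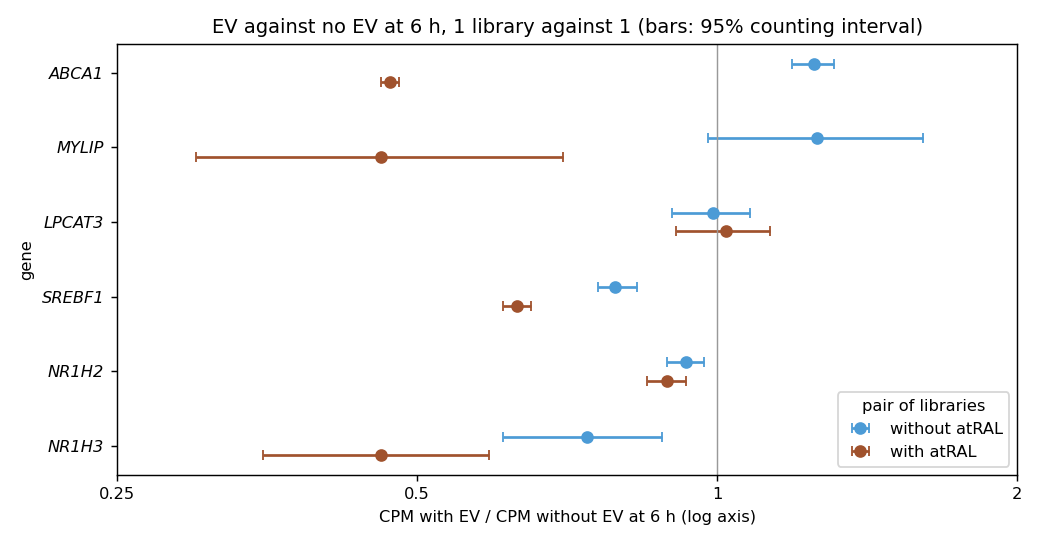
Ratio of CPM with EV to CPM without EV at 6 h (log axis), 1 library against 1, without atRAL and with atRAL, with 95% exact counting intervals as bars. ABCA1 lies at 1.25 without atRAL and 0.47 with it, and LPCAT3 lies near 1 in both.

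Between 1 h and 6 h with atRAL, the fitted ABCA1 level differed by 1.99 ± 0.30 on the log2 scale. Of the other 6 genes edgeR called 0, with 2 at an unadjusted p under 0.05 (35.1% of all genes), against 20.2% of all genes called. LPCAT3 differed by -0.41 ± 0.12 (adjusted p = 0.05 after rounding, edgeR). Without atRAL, 0 of the 6 were called against 0.158% of all genes, and 1 had an unadjusted p under 0.05 (16% of all genes). For the 6 h minus 1 h difference, 13.4% of all genes were called for atRAL and 0.211% for EV.

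The other genes of the pathway were taken from 9 lists of 102 genes, of which 81 were tested. With atRAL at 6 h, 16 rose and 11 fell, so that 27 of 81 were called, close to the 30.2% of all genes, against which the count of each single list also stands. The median log2 change over the 81 was 0.03, against -0.01 over all genes tested. At 1 h edgeR called 0 of the 81 with atRAL (3 at an unadjusted p under 0.05) and 0 with EV (1 unadjusted).

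**Figure D4:**
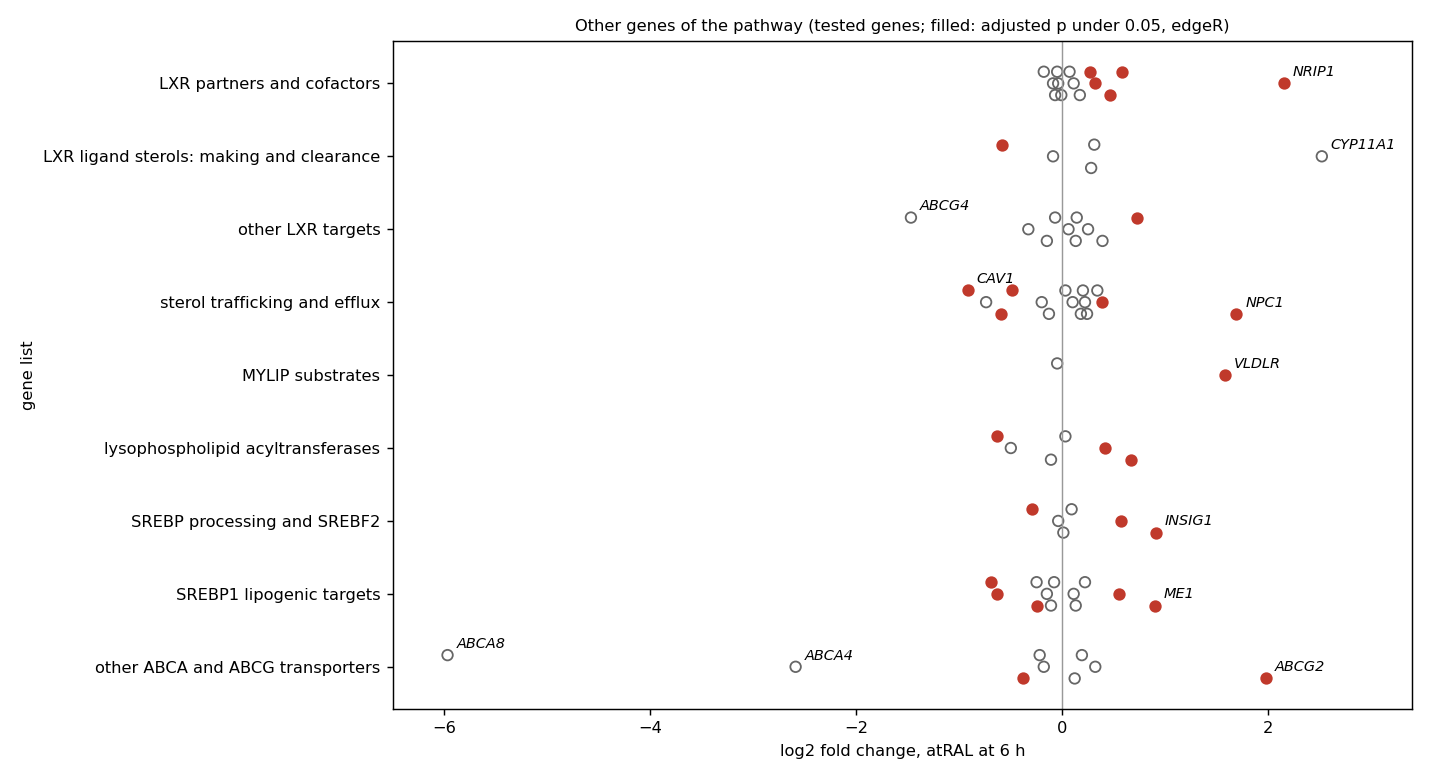
Log2 fold change with atRAL at 6 h (x axis) for 79 of the 81 tested genes of the 9 lists (rows), with filled points for an adjusted p under 0.05 (edgeR) and names for changes of 0.8 or more. NRIP1, ABCG2, NPC1 and VLDLR lie farthest right among the filled points, and the open points of ABCA8, ABCA4, ABCG4 and CYP11A1 rest on at most 28 counts in a library.

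Among receptor partners and cofactors, 5 of 14 rose and 0 fell by edgeR (6 at an unadjusted p under 0.05, as 41.7% of all genes were), with a median of 0.09. NRIP1, a corepressor and coactivator of nuclear receptors, went from 37.8 CPM in the control and 53.0 with EV to 184 with atRAL and 214 with both at 6 h. It rose by 2.15 ± 0.10 on the log2 scale at 6 h (adjusted p = 2e-05, edgeR). At 1 h NRIP1 stood at 51.5 and 61.1 CPM without atRAL and at 87.7 and 90.6 CPM with it. Its log2 change at 1 h was 0.67 ± 0.09 (adjusted p = 0.24, unadjusted p = 0.00011, edgeR). SIRT1, a deacetylase that acts on liver X receptors, rose by 0.58 ± 0.13 (0.014), but lost that call on omission of either EV-free library at 6 h (up to 0.078). The coactivators NCOA3 and NCOA6 rose by 0.46 ± 0.08 (0.0052) and 0.32 ± 0.08 (0.015), and the NCOA6 call was lost in 6 of 8 omissions (up to 0.1).

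Other targets of the receptors did not share a direction. Of 23 listed, 11 were tested and 9 had no count; 1 rose and 1 fell, with a median of 0.06. RNF145, a ubiquitin ligase of sterol control, stood at 114 and 117 CPM without atRAL and at 192 and 190.4 CPM with it at 6 h, and rose by 0.73 ± 0.08 (adjusted p = 0.00057, edgeR). Of 5 tested genes that make or clear ligand sterols, HSD3B7 fell by 0.59 ± 0.13 (0.012) and the median was 0.28.

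In sterol trafficking, 2 of 15 rose and 3 fell, with a median of 0.10. NPC1, which moves cholesterol out of lysosomes, stood at 55.2 and 65.7 CPM without atRAL and 188 and 202 CPM with it at 6 h, and rose by 1.69 ± 0.08 (adjusted p = 2e-05, edgeR). CAV1, the caveolae coat protein, fell by 0.92 ± 0.09 (0.00031), GRAMD1B, an endoplasmic reticulum sterol carrier, by 0.60 ± 0.11 (0.0056), and NCEH1, a cholesteryl ester hydrolase, by 0.49 ± 0.08 (0.0028).

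MYLIP protein marks lipoprotein receptors for degradation, which acts on protein and not on mRNA. VLDLR stood at 14.7 and 11.7 CPM without atRAL and 39.9 and 38.6 CPM with it at 6 h, and rose by 1.58 ± 0.11 (adjusted p = 9.8e-05, edgeR). At 1 h it was at 30.1 to 37.2 CPM in all 4 libraries. LRP8 had a log2 change of -0.05 ± 0.09 (0.7).

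Among the 6 other lysophospholipid acyltransferases, 2 rose and 1 fell, with a median of -0.04. MBOAT2 rose by 0.67 ± 0.08 (adjusted p = 0.0011, edgeR), LPCAT1 rose by 0.41 ± 0.07 (0.0042) and LPCAT4 fell by 0.63 ± 0.08 (0.0015). Among 6 genes of SREBP processing, 2 rose and 1 fell, with a median of 0.05. INSIG1 and INSIG2, which hold SREBP in the endoplasmic reticulum, rose by 0.91 ± 0.11 (0.0012) and 0.57 ± 0.12 (0.0087). SCAP, the SREBP escort, fell by 0.29 ± 0.09 (0.045), a call lost in 6 of 8 omissions (up to 0.19). SREBF2, the cholesterol synthesis factor, had a log2 change of 0.09 ± 0.07 (0.36).

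Of 12 tested fatty acid synthesis targets of SREBP1, 2 rose and 3 fell, with a median of -0.09 beside the rise of SREBF1 itself. ME1, malic enzyme, rose by 0.90 ± 0.10 (adjusted p = 0.00072, edgeR) and the elongase ELOVL5 by 0.55 ± 0.08 (0.0018). ACACB, an acetyl-CoA carboxylase, fell by 0.69 ± 0.17 (0.017) and the lipase PNPLA3 by 0.63 ± 0.15 (0.016). The ACACB call was lost in 6 of 8 omissions (up to 0.17, log2 change -0.93 to -0.44), and that of PNPLA3 on omitting either EV-free library at 6 h (up to 0.13, log2 change -0.88 to -0.39). Among 9 tested transporters of the ABCA and ABCG families, 1 rose and 1 fell, with a median of -0.18. ABCG2, a drug and urate exporter, stood at 1.92 and 2.34 CPM without atRAL and 11.1 and 6.30 CPM with it at 6 h, and rose by 1.98 ± 0.29 (0.0032). ABCA2 fell by 0.38 ± 0.08 (0.01), and its call was lost on omission of either EV-free library at 6 h (up to 0.064).

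With EV at 6 h, 2 of the 81 rose and 0 fell by edgeR, where 1.7% of all genes were called, and 21 had an unadjusted p under 0.05, where 18.6% of all genes did. MBOAT2 stood at 41.6 CPM in the control, 67.9 with EV, 62.8 with atRAL and 113 with both, and rose by 0.78 ± 0.08 with EV (adjusted p = 0.0088, edgeR). That call was lost without any single 1 h library (up to 0.11). The elongase ELOVL6 rose by 0.55 ± 0.10 (0.041), a call lost in 6 of 8 omissions (up to 0.23).

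Likeness to ABCA1 was measured as the Pearson correlation of log2 CPM over the 8 libraries, among 11684 genes. The closest were STK24 (0.997), KLHL38 (0.997), PRELID3A (0.996), SP1 (0.996) and WDR45 (0.995). All libraries share the same treatments, and 951 genes (8.14%) reached 0.9 or more. STK24, a kinase, stood at 95.3 CPM in the control, 108 with EV, 409 with atRAL and 246 with both at 6 h. SP1, a transcription factor, stood at 92.4, 94.3, 168 and 134 CPM in the same order, so its range was narrower than that of ABCA1. Over the same 8 libraries the correlation with ABCA1 was 0.72 for SREBF1, 0.40 for NR1H2, -0.48 for NR1H3, -0.58 for MYLIP and -0.88 for LPCAT3.

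**Figure D5:**
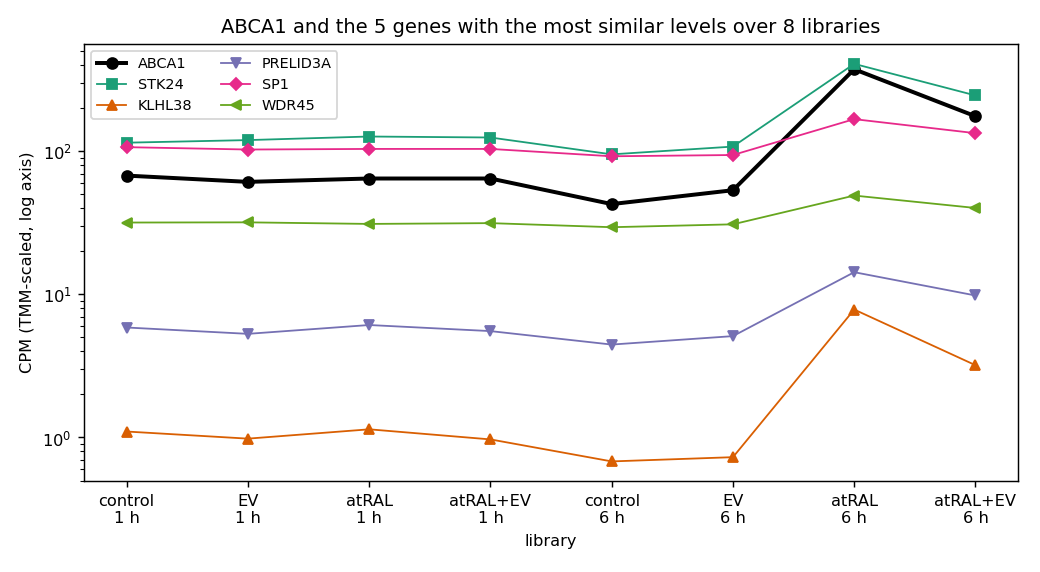
CPM (TMM-scaled, log axis) of ABCA1 and the 5 genes with the highest correlation to it, 1 point per library, so without error bars. Each of the 6 genes is highest with atRAL at 6 h and second highest with atRAL and EV at 6 h, with 375 and 176 CPM for ABCA1.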

How the data were processed

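Poly(A) RNA of 8 RPE-1 libraries was measured, 1 per combination of time, atRAL and EV, grouped by sample title. The authors deposited unnormalised gene counts, per the file headers, and beside them FPKM, which the authors had scaled to length and library size. Another 8 columns of sample values were left out. Per the submitters' processing notes, HISAT2 2.1.0, StringTie 2.1.3b and GRCh38 were involved, with no roles stated. How reads were counted, and with which annotation and strand setting, is not given in the sources used here, although the library kit marks strand, per the labels' protocols.

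Counts were scaled by TMM and filtered with filterByExpr at a minimum count of 10, which left 17044 genes and removed 29383. Effects were tested with edgeR 4.0.16 (R 4.3.3) by the quasi-likelihood F test, with Benjamini-Hochberg adjustment over the 17044 and calls at an adjusted p under 0.05. One model held time, and atRAL and EV within time. The other held each time by atRAL combination, with an EV term for cells with atRAL and another for cells without. Each has 2 residual degrees of freedom, and the biological coefficient of variation was 9.66% and 13.9%. With no replicates, these take in any interaction of atRAL with EV in the first model. In the second they take in any change of the EV effect between times. A standard error is the log2 change divided by the root of F. The scripts were also run on simulated counts with the same spread for every gene, which does not check the calls made here. Counting intervals are exact at 95%, and they and the limit of 3 counts cover counting error only.

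The alternatives were other scalings, no filter, DESeq2 1.42.0, limma 3.58.1 on log2(FPKM + 1) and log2(FPKM + 0.1), each time alone, and leaving out each library. Leaving out a library sets 1 library against 1 for the effects that draw on it. A call held or lost in that way is therefore no check by replication. The labels name no separate cultures. All 7 genes are named in the comparisons, and of each list up to 4 called genes with the largest change. VLDLR, LRP8 and SREBF2 are named always, and so are the 5 genes most like ABCA1 among genes whose log2 CPM averages 1 or more. A few genes that these rules name are not reported here, though they stay in the counts and medians. The 7 genes and the lists were chosen with earlier results of these data known. Coordinates, promoters and microRNAs come from RefSeq tables of GRCh38.p14, in which 44698 gene identifiers matched, and the UTR and gene overlaps from GENCODE 29.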

Additional observations from a re-analysis of the deposited data

Results flagged for a closer look

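For these genes the atRAL effect differed between 6 h and 1 h by a test of the difference itself (edgeR quasi-likelihood, adjusted over all genes), given as the log2 effect at 6 h minus that at 1 h with its SE. The difference was 0.81 ± 0.20 for SREBF1 (adjusted p = 0.043, edgeR), the one gene called among the 6 other than ABCA1. It was above 0 for NPC1 (1.69 ± 0.11, 0.00027), NRIP1 (1.48 ± 0.13, 0.00089), VLDLR (1.41 ± 0.15, 0.0017), INSIG1 (1.19 ± 0.16, 0.0043), ME1 (0.87 ± 0.14, 0.0088), RNF145 (0.66 ± 0.11, 0.0092), MBOAT2 (0.62 ± 0.12, 0.015) and ELOVL5 (0.56 ± 0.11, 0.016). It was below 0 for CAV1 (-0.91 ± 0.12, 0.0039), LPCAT4 (-0.70 ± 0.12, 0.0098), HSD3B7 (-0.68 ± 0.18, 0.048), GRAMD1B (-0.58 ± 0.15, 0.044), ABCA2 (-0.47 ± 0.11, 0.036) and NCEH1 (-0.45 ± 0.11, 0.031). The EV effect on MBOAT2 differed between the times by 0.85 ± 0.12 (adjusted p = 0.045, edgeR). On leaving out each library in turn, which sets 1 library against 1 at the time concerned, the NPC1 difference was 1.61 to 1.76. Each other gene here lost its call at least once.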

How the results depend on the processing

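No paired analysis was possible because each condition has 1 library and the titles carry no replicate number. The group was selected on the values of ABCA1, so its counts in this paragraph are given over the other 6 genes, a choice made after seeing the data. With atRAL at 6 h, 3 of those 6, of which 5 were tested, were called as reported. Upper quartile scaling called 4 (1 higher and 3 lower) and limma 2 with either pseudocount. With no filter 1 was called, and 1 by DESeq2. From the 6 h libraries alone (1 residual degree of freedom), 1 was called. For the atRAL difference between times, 1 was called as reported, 0 with library totals alone, 0 with no filter and 1 by DESeq2. For time with atRAL, 0 were called as reported and 1 under each of relative log expression, upper quartile and library totals. DESeq2 called 1 with EV at 6 h and 1 for time without atRAL, where edgeR called 0. Of the wider lists with EV at 6 h, 2 were called as reported, 1 with library totals, 1 with no filter, 5 by DESeq2 and 0 by limma with either pseudocount. The causes were not tested.

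On leaving out each library in turn, calls were counted over all 7 genes, ABCA1 included. As ABCA1 was selected on its values, these counts are a description and no test. They were 1 to 4 for atRAL at 6 h, 0 to 2 for EV at 6 h and 0 to 2 for EV with atRAL. For time they were 0 to 1 without atRAL and 1 to 2 with atRAL. They were 0 to 2 for the atRAL difference between times and 0 to 2 for the EV difference between times. For EV with minus without atRAL they were 0 to 1. Over the 6 genes other than ABCA1, 1 was called for atRAL at 6 h without any single 1 h library. The wider lists gave 22 to 32 for atRAL at 6 h and 0 to 8 for EV at 6 h. MYLIP with atRAL at 6 h had an adjusted p of 0.084 with no filter, 0.074 by DESeq2, 0.051 and 0.054 by limma and 0.094 from 6 h alone; LPCAT3 had 0.056 with no filter, 0.13 by DESeq2 and 0.098 from 6 h alone. No direction reversed among the results recomputed. Over all genes, EV at 6 h gave 186 higher and 104 lower calls with TMM, and 111 of each with library totals. At this depth the 0 counts of ABCG1 allow up to 0.0658 CPM by library total alone, and MYLIP rests on 34 to 145 counts.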

Other observations

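ABCG1 lay in a run of 10 neighbouring protein-coding genes on chromosome 21, from UMODL1 to PDE9A (42062877 to 42775509, GRCh38.p14), that all had 0 counts in the 8 libraries. Over the genome, 4230 of 19402 coding genes (21.8%) had no count, and 37 runs were at least as long.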
